A study of Rattus norvegicus with 10 samples.

Results

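Myogenin and the 2 muscle-specific membrane proteins of myoblast fusion, myomaker and myomixer, were followed in cultured myoblasts from rat soleus muscle through the genes Myog (ENSRNOG00000030743), Mymk (ENSRNOG00000006142) and Mymx (ENSRNOG00000042497). These were 3 of the 32622 genes in the deposited count table, picked by name. All 3 passed the filter on low counts in every comparison. The count table carries Ensembl identifiers alone, and the symbols came from the study's list of differentially expressed genes, where the 3 genes stand for HS7 against Control. That comparison is therefore not independent evidence on them. The other comparisons with HS7 or Control share its libraries and are not free of that selection.

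The cells came from 3-month-old male Wistar rats. Control rats were kept in cages, and the other rats were in hindlimb suspension, which lifts the hindlimbs so that the soleus, a postural muscle, bears no load, for 1 (HS1), 3 (HS3), 7 (HS7) or 14 (HS14) days. In every group the soleus of both hindlimbs was digested into a pool of satellite cells, which were grown in serum-rich medium on Geltrex. Pre-plating on an uncoated dish was used to separate them from fibro-adipogenic cells. The cells were then cultured for 1 further day in growth medium before polyadenylated RNA was sequenced. No differentiation medium had been given. Each of the 5 groups had 2 libraries, and the labels do not say whether these came from different animals or cultures, so p-values measure the spread between the libraries, which may be technical.

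Myogenin is a basic helix-loop-helix transcription factor that binds E-boxes and switches myoblasts from commitment to terminal differentiation. Myomaker, a membrane protein with several transmembrane segments, and myomixer, a micropeptide also called myomerger or minion, act in sequence at the cell surface. Myomaker is needed for the outer leaflets of apposed membranes to merge, and myomixer for the fusion pore to open. In skeletal muscle their genes are switched on with differentiation and are known targets of MyoD and myogenin, whereas quiescent satellite cells hold little of any of the 3 transcripts.

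The bases upstream of the start sites of Myog and Mymx are shown because the 3 transcripts moved together and E-boxes are the sequences that myogenin and MyoD bind. The sequences are from RefSeq on GRCr8, which is not a build named for the counting, and run over the 250 bases before the first listed start, on the plus strand. The Myog window is chr13:48297226-48297475 and the Mymx window is chr9:22894274-22894523. Capitals mark E-boxes (CANNTG) and, in Myog, a MEF2 core (CTANNNNTA).
Myog: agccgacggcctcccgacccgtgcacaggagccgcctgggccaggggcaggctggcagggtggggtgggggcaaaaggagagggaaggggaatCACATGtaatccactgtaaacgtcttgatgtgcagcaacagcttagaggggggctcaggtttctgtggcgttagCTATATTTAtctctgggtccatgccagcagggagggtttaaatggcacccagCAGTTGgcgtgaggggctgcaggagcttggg
Mymx: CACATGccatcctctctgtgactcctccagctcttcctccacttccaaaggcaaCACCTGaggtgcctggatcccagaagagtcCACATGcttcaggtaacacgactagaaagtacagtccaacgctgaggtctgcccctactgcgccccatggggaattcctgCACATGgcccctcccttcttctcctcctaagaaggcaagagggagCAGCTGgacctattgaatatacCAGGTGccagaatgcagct
The Myog window held 2 E-boxes, at -157 and -31 from the start, and 1 MEF2 core at -83, where MEF2 names a family of factors that act with myogenic factors. The Mymx window held 6 E-boxes, the outermost at -250 and the nearest at -19, and 1 of them, at -41, had the letters CAGCTG. Both motifs were searched on both strands. Of the same window in 27457 genes, 65.2% held at least 1 E-box, 30.1% at least 2 and 0.244% at least 6, while 20.0% held the MEF2 core and 11.9% held CAGCTG, which is one form of the E-box. Mymx has 3 listed starts, and the windows before the second and the third held 4 and 5 E-boxes and overlap the first. A match of letters is a description and not a bound site. Mymk had no entry.

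The libraries held 20200972 to 28175200 counts and 15602 to 15960 genes with at least 1 count, and the TMM factors, edgeR's correction for composition, lay between 0.967 and 1.03. Levels are given as CPM, the count scaled by the library's normalized depth with TMM. Among counts of 1 to 20, 69.4% to 72.0% were even numbers, so counting intervals were computed on halved counts. These intervals, at the 95% level, cover counting error only. Because transcript lengths were not used here, a higher CPM of one gene than of another does not show more molecules.

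Myog was lowest in HS1 and highest in HS7. The Control libraries held 233 and 243 CPM, replicate 1 first. Suspension for 1 day gave 116 and 107 CPM, for 3 days 426 and 387 CPM, for 7 days 884 and 670 CPM, and for 14 days 182 and 153 CPM. In ascending order the group means were 111 ± 6.05 CPM (HS1), 167 ± 20.4 (HS14), 238 ± 7.19 (Control), 407 ± 27.3 (HS3) and 777 ± 151 (HS7) (SD, n = 2 each), and no library of one group lay within the range of another. From the lowest to the highest group the mean rose 6.97-fold, with 2460 counts in the smallest library and 21796 in the largest.

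Mymk had the same order of group means as Myog. Without suspension the libraries held 72.8 and 75.2 CPM. With it they held 51.7 and 45.6 CPM after 1 day, 126 and 131 CPM after 3 days, 316 and 207 CPM after 7 days, and 76.3 and 65.3 CPM after 14 days. The means were, from the lowest up, 48.7 ± 4.34 CPM (HS1), 70.8 ± 7.83 (HS14), 74.0 ± 1.69 (Control), 129 ± 2.98 (HS3) and 261 ± 76.6 (HS7) (SD, n = 2 each). HS14 and Control overlapped, since the HS14 libraries lay on either side of both Control libraries. The other neighbours in the order did not overlap, and the HS7 mean was 5.37 times the HS1 mean.

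Mymx had the fewest counts of the 3 genes, from 83 to 803 per library, and hence the widest counting intervals. The Control libraries held 7.79 and 9.03 CPM, and the suspended groups 3.39 and 4.84 CPM (HS1), 15.5 and 17.9 CPM (HS3), 32.6 and 23.8 CPM (HS7) and 7.57 and 5.60 CPM (HS14). The means ran from 4.11 ± 1.02 CPM (HS1) over 6.59 ± 1.39 (HS14), 8.41 ± 0.876 (Control) and 16.7 ± 1.66 (HS3) to 28.2 ± 6.15 (HS7) (SD, n = 2 each). No neighbours overlapped, although the higher HS14 library was close below the lower Control library. The mean rose 6.86-fold from HS1 to HS7.

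**Figure D1:**
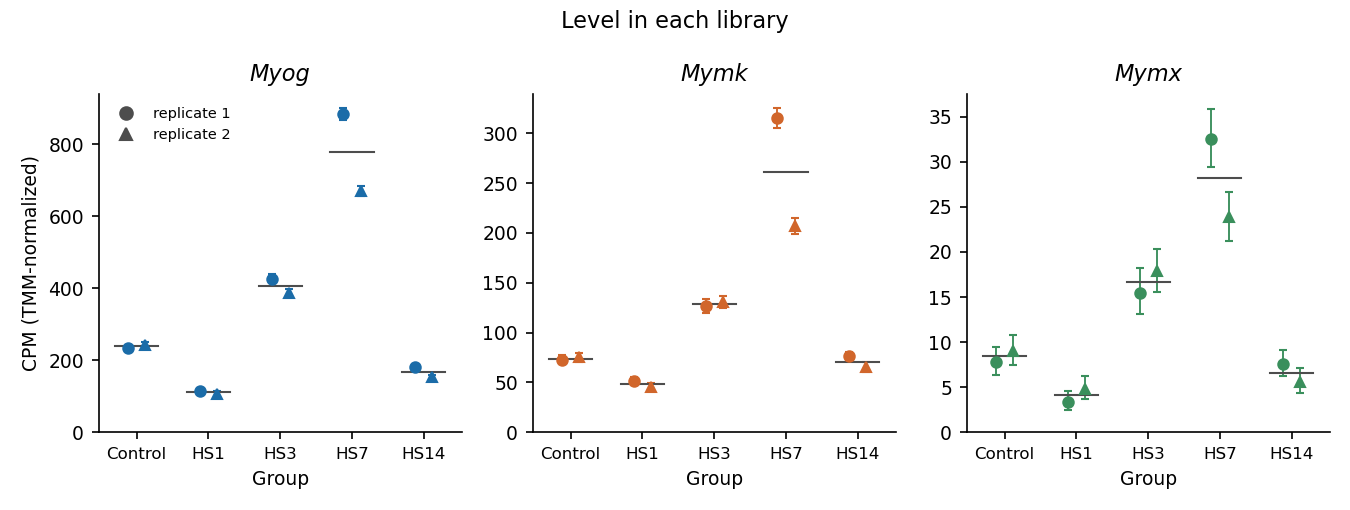
TMM-normalized CPM of Myog, Mymk and Mymx (vertical axes, from 0) in each library by group (horizontal axis); circles are replicate 1, triangles replicate 2, bars 95% counting intervals and horizontal lines group means. In each panel HS1 is lowest and HS7 highest, and the lower HS7 library, at 670, 207 and 23.8 CPM, stands above every library of the other groups.

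After 1 day of suspension all 3 transcripts were below Control. A gene was called at an adjusted p under 0.01 (edgeR, quasi-likelihood, adjusted by Benjamini-Hochberg over all genes tested). It was a differentially expressed gene (DEG), by the study's thresholds, if its log2 fold change was also beyond 1.5. In HS1 against Control 3 of 3 members were called, all lower, where 16.9% of all genes tested were called and 10.5% were called lower. Myog fell by 1.10 on the log2 scale (SE 0.0572, edgeR adjusted p = 1.46e-12). Mymk fell by 0.60 (SE 0.0743, edgeR adjusted p = 1.64e-06), and Mymx fell by 1.04 (SE 0.198, edgeR adjusted p = 0.000397). None of the 3 was a DEG, and their libraries did not overlap with Control, as for 31.4% of all genes in this direction. The Mymk call was lost when all 10 libraries shared one fit (log2 fold change -0.60, edgeR adjusted p = 0.100). In these bulk cultures fewer cells that hold a transcript and less of it per cell cannot be told apart. The direction is opposite to that of the study's RT-PCR, which reported Myog, Mymk and Mymx above Control at this time point. The same study's gene set analysis of the sequencing reported the myogenesis pathway as lower in HS1, and its fraction of MYOD-positive cells fell. Why the sequencing and the RT-PCR differ was not tested.

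After 3 days all 3 transcripts were above Control. All 3 were called higher, where 11.5% of all genes were called and 7% were called higher. The log2 fold change was 0.77 for Myog (SE 0.0685, edgeR adjusted p = 4.39e-06), 0.79 for Mymk (SE 0.0717, edgeR adjusted p = 4.83e-06) and 0.98 for Mymx (SE 0.145, edgeR adjusted p = 0.000309). Libraries of the 2 groups did not overlap for any member, as for 29.5% of all genes in this direction, and none was a DEG. The Mymk call was again lost in the 10-library fit (log2 fold change 0.80, edgeR adjusted p = 0.0331).

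After 7 days the excess over Control was more than 3-fold for each member. The study's RT-PCR also reported Myog, Mymk and Mymx above Control at this time point, with larger increases of Mymk and Mymx than here. Myog was higher by 1.71 on the log2 scale (SE 0.156, edgeR adjusted p = 0.00234) and Mymx by 1.75 (SE 0.152, edgeR adjusted p = 1.09e-06), and both were DEGs, as were 1.95% of all genes in this direction. Mymk had the largest difference of the 3, 1.82, but also the largest error (SE 0.294), and it did not pass the threshold (edgeR adjusted p = 0.0389). DESeq2 called it (adjusted p = 1.26e-08), as did the fit of all 10 libraries (edgeR adjusted p = 0.000431). The fits with RLE scaling, without the filter and with the replicate number as a block did not (edgeR adjusted p = 0.0406, 0.0773 and 0.118). So 2 of 3 members were called, where 32.9% of all genes were called and 16.6% were called higher. No member overlapped with Control, as for 36.3% of all genes in this direction. Without the higher HS7 library, the number of DEGs among the members was 1.

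After 14 days Myog was below Control, and Mymk and Mymx were not called. Myog fell by 0.51 on the log2 scale (SE 0.0593, edgeR adjusted p = 4.93e-09), while Mymk was at -0.07 (SE 0.0694, edgeR adjusted p = 0.468) and Mymx at -0.35 (SE 0.172, edgeR adjusted p = 0.0990). Thus 1 of 3 members was called, where 32.9% of all genes were called and 17% were called lower. Leaving out 1 library at a time, the Mymk value ranged from -0.19 to 0.04 and the Mymx value from -0.59 to -0.16. The Myog call was lost in the 10-library fit (log2 fold change -0.51, edgeR adjusted p = 0.0122). These 4 comparisons share the Control libraries.

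Between successive time points the members rose from HS1 to HS3 and again to HS7, and then fell. From HS1 to HS3 all 3 were called higher, where 30.5% of all genes were called and 17.2% were called higher, and Myog and Mymx were DEGs, as were 5.69% of all genes in this direction. The log2 fold change was 1.87 for Myog (SE 0.0868, edgeR adjusted p = 1.81e-17), 1.41 for Mymk (SE 0.0937, edgeR adjusted p = 1.05e-13) and 2.03 for Mymx (SE 0.191, edgeR adjusted p = 2.91e-10). From HS3 to HS7 Myog rose by 0.91 (SE 0.121, edgeR adjusted p = 0.000189) and Mymx by 0.74 (SE 0.153, edgeR adjusted p = 0.00218), whereas Mymk, at 1.01, did not pass (SE 0.212, edgeR adjusted p = 0.0232). That made 2 of 3 members called, where 23% of all genes were called and 10.1% were called higher. Each of these 2 calls was lost without either HS3 library, with adjusted p between 0.0174 and 0.0356, and the Mymx call also without the higher HS7 library (log2 fold change 0.50, edgeR adjusted p = 0.0232).

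From HS7 to HS14 the levels dropped below those of HS3. Myog fell by 2.20 on the log2 scale (SE 0.197, edgeR adjusted p = 0.00576) and Mymx fell by 2.08 (SE 0.181, edgeR adjusted p = 6.45e-06), both as DEGs, as were 1.82% of all genes in this direction. Mymk was at -1.87 and missed the threshold (SE 0.310, edgeR adjusted p = 0.0502). Here 2 of 3 members were called, where 23.5% of all genes were called and 12% were called lower. Mymk was called in this comparison and in HS7 against HS3 by DESeq2 (adjusted p = 5.87e-08 and 0.00369), by the fit of all 10 libraries (0.000466 and 0.00589) and with the replicate number as a block (1.70e-08 and 0.00573). With RLE scaling it was called in neither (edgeR adjusted p = 0.0516 and 0.0208). Without the filter it was not called in HS14 against HS7 (edgeR adjusted p = 0.0970).

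The remaining comparisons were between suspended groups that are not next to each other in time. HS7 against HS1 gave the largest differences, 2.79 for Myog (SE 0.142, edgeR adjusted p = 1.99e-05) and 2.76 for Mymx (SE 0.198, edgeR adjusted p = 9.91e-07), both DEGs (3.85% of all genes in this direction), with Mymk at 2.41 and not called (SE 0.298, edgeR adjusted p = 0.0173), where 34.1% of all genes were called and 17.5% were called higher. HS14 against HS1 gave small differences, and Myog at 0.57 (edgeR adjusted p = 1.69e-05) and Mymk at 0.52 (edgeR adjusted p = 0.000134) were called higher but Mymx at 0.67 was not (SE 0.224, edgeR adjusted p = 0.0257), where 24.8% of all genes were called and 12% were called higher. In HS14 against HS3 all 3 were called lower, at -1.30 for Myog, -0.88 for Mymk and -1.36 for Mymx (edgeR adjusted p = 1.54e-11, 8.52e-09 and 3.77e-07), where 31.9% of all genes were called and 18.1% were called lower. None of the 3 was a DEG in these last 2 comparisons. The Mymk calls of both comparisons were lost in the 10-library fit (edgeR, 0.0959 and 0.0128 after adjustment).

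**Figure D2:**
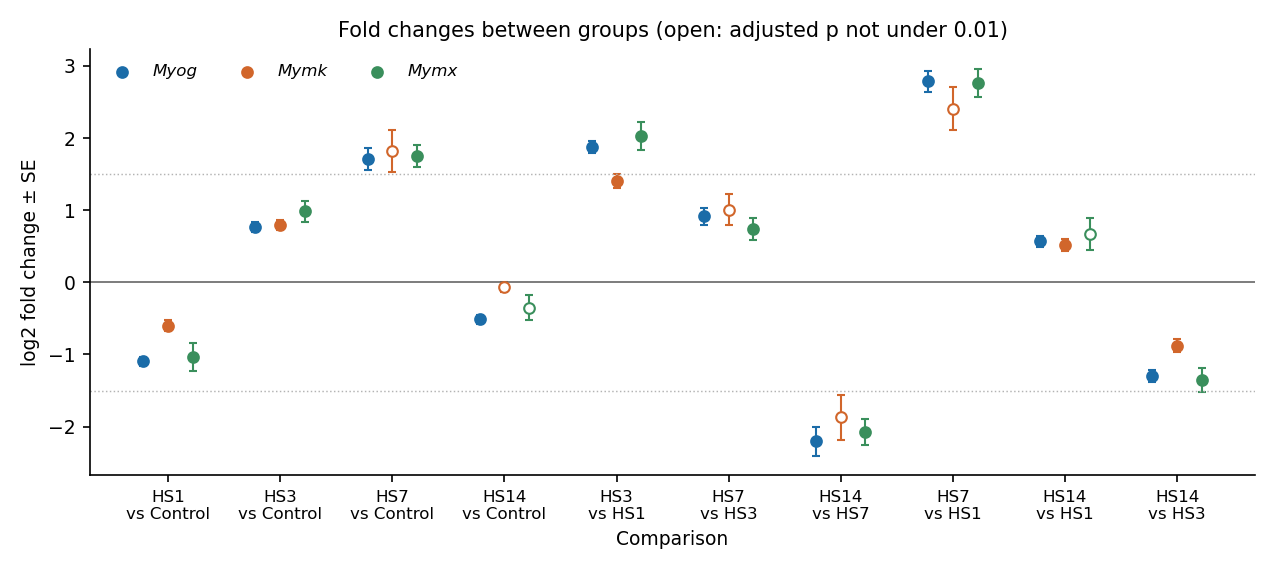
log2 fold change with its SE (vertical axis) of Myog, Mymk and Mymx in the 10 comparisons between groups (horizontal axis); filled points have an edgeR adjusted p under 0.01, open points do not, and dotted lines mark 1.5 in either direction. Mymk is open in all 4 comparisons that hold HS7, where its SE is 0.212 to 0.310, and filled in all the others but HS14 vs Control.

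A ratio of 2 genes within a library does not depend on how libraries are scaled. For every 100 Myog counts the Control libraries had 31.2 and 30.9 Mymk counts. The suspended groups had 44.7 and 42.6 (HS1), 29.7 and 33.7 (HS3), 35.7 and 30.9 (HS7) and 42.0 and 42.6 (HS14). The 4 libraries of HS1 and HS14, the groups with the least Myog, lay above the 6 others, and Control, HS3 and HS7 overlapped. By an exact permutation test over all 945 partitions of the 10 libraries into pairs (one-sided, statistic the variance between over within pairs) the ratio differed between groups at p = 0.0339, which became 0.102 after adjustment over the 3 ratios and did not pass 0.05. The smallest p the design allows is 0.00106, while 2 libraries against 2 cannot go below 0.333. Leaving out each library in turn, the adjusted p ranged from 0.0540 to 0.152.

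For Mymx against Myog no difference between groups passed the test. There were 2.93 to 4.61 Mymx counts for every 100 Myog counts, and the group means were 3.52 ± 0.261 (Control), 3.72 ± 1.12 (HS1), 4.12 ± 0.685 (HS3), 3.62 ± 0.0872 (HS7) and 3.91 ± 0.356 (HS14) (SD, n = 2 each). The exact permutation p was 0.858, and the HS1 libraries alone spanned 2.93 to 4.51. With 83 and 111 Mymx counts in HS1, their 95% Wilson intervals were 2.18 to 4.03 and 3.49 to 5.95.

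Mymx counts for every 100 Mymk counts were 10.7 and 12 (Control), 6.56 and 10.6 (HS1), 12.3 and 13.7 (HS3), 10.3 and 11.5 (HS7) and 9.92 and 8.58 (HS14). HS3 was highest in both libraries and the lowest value was replicate 1 of HS1. The exact permutation p was 0.167, or 0.251 after adjustment, and it was 0.0159 after adjustment without HS1 replicate 2, so that this result turned on a single library of low count.

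**Figure D3:**
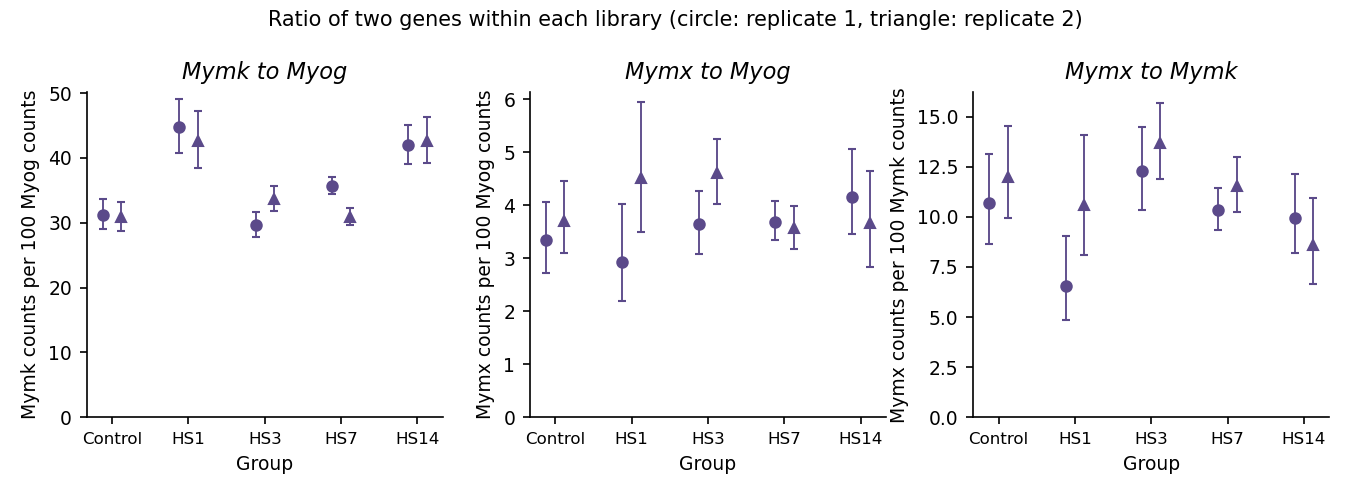
Counts of the first gene per 100 counts of the second (vertical axes, from 0) within each library, by group (horizontal axis), for Mymk to Myog, Mymx to Myog and Mymx to Mymk; circles are replicate 1, triangles replicate 2, and bars 95% Wilson intervals on halved counts. The Mymk to Myog ratio is 42.0 to 44.7 in HS1 and HS14 and 29.7 to 35.7 in the other groups; the intervals of the Mymx ratios overlap between most groups.

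The 2 HS7 libraries differed from each other in all 3 genes. Replicate 1 held 1.32 times the Myog of replicate 2 (log2 difference 0.40, 95% counting interval 0.36 to 0.44), 1.52 times the Mymk (0.61, 0.54 to 0.68) and 1.36 times the Mymx (0.45, 0.23 to 0.67). All 3 were higher in replicate 1, by more than counting error. Among 13691 expressed genes, 88.0% differed less between these libraries than Myog, 95% less than Mymk and 90.2% less than Mymx. In HS14 all 3 were also higher in replicate 1, by 0.25 for Myog (0.16 to 0.34) and 0.23 for Mymk (0.09 to 0.36), beyond counting error, and by 0.44 for Mymx, with an interval that just held 0. There 79.6%, 76.6% and 92.0% of genes differed less than these 3. In HS1 the Mymx difference was -0.51, with 93.6% of genes differing less and an interval that held 0. In Control, HS1 and HS3 the Myog difference was -0.06 to 0.14 and the Mymk difference -0.05 to 0.18. Total counts of the HS7 libraries were 25414444 and 25959230.

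Other muscle genes were higher in the same HS7 library. The lists named here hold only those genes whose symbol could be tied to an identifier, 11 of 29 regulators of myogenesis, 7 of 30 genes of fusion and the muscle membrane, and 25 of 30 early structural genes, and all of them had been called by the study at some time point. All 25 structural genes were higher in HS7 replicate 1, with a median log2 difference of 0.86, as were all 7 fusion and membrane genes, with a median of 0.81. In the other groups the median of the structural genes was -0.09 to 0.05. In replicate 1 of Control and HS3, 20 and 19 of the 25 were lower, and in HS1 and HS14, 16 and 17 were higher. The medians of the fusion and membrane genes there were 0.00 to 0.18. In HS7 Actc1, the cardiac alpha-actin that is also the embryonic actin of skeletal muscle, was at 3252 and 1845 CPM. Myh3, embryonic myosin heavy chain, was at 1990 and 1106 CPM. Of the regulators 9 of 11 were higher, with a median of 0.08. Among them Cdkn1c, which codes for the cell cycle inhibitor p57, stood at 78.4 and 39.9 CPM, whereas the Notch target Heyl stood at 204 and 195 CPM. Of the markers of other cell types, those of fibro-adipogenic cells and fibroblasts summed to 9062 and 8980 CPM, mostly Col1a1 at 7727 and 7850 CPM, and 6 of the 10 were higher in replicate 1 (median log2 difference 0.20). Also higher in replicate 1 were 6 of 8 endothelial markers (0.39), 3 of 4 macrophage and leukocyte markers (0.64), 2 of 3 smooth muscle and pericyte markers (0.50), 3 of 5 adipocyte markers (0.16) and 1 of 2 Schwann and glial markers (0.48). Their part in the members' difference was not tested.

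**Figure D4:**
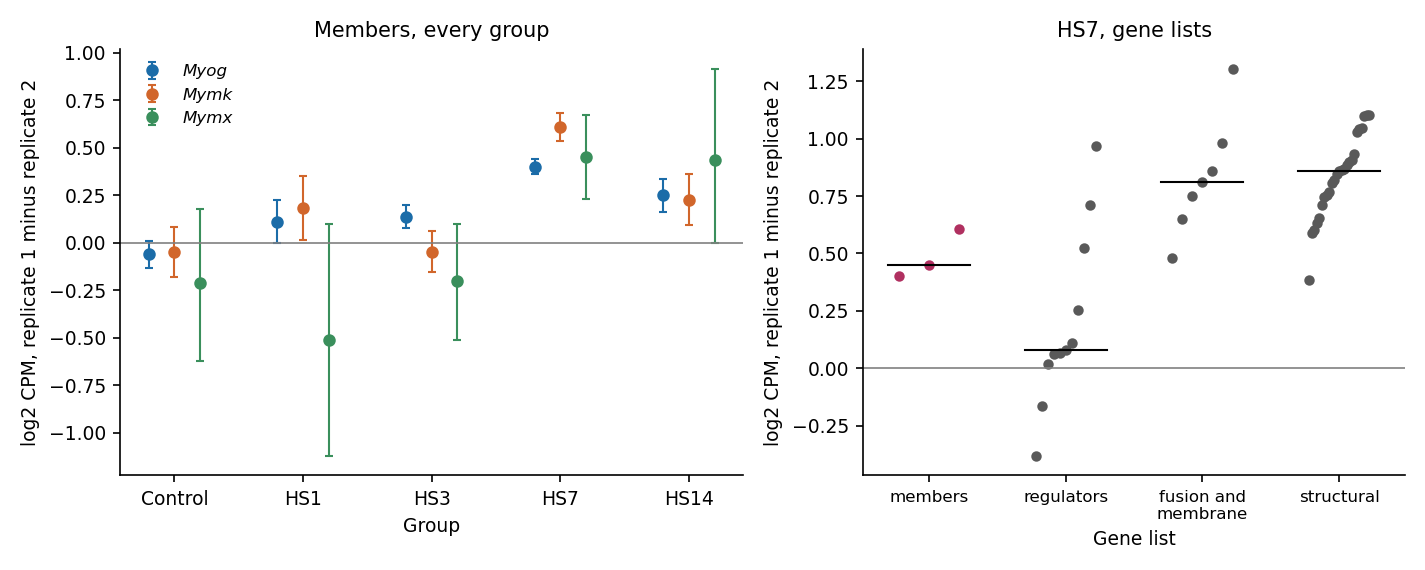
Left, difference in log2 CPM between replicate 1 and replicate 2 (vertical axis) of Myog, Mymk and Mymx in each group (horizontal axis), with 95% counting intervals. Right, the same difference within HS7 for the members and for each gene of the 3 lists, with the list median as a line; 0.5 CPM was added for the list genes. All 3 members and every fusion and structural gene lie above 0 in HS7, with medians of 0.81 and 0.86 for the last 2 lists, while the regulators have a median of 0.08.

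The regulators were called mostly in HS7. The genes of the regulator, fusion and structural lists all came from the study's list of called genes. Their shares called, here and below, are thus not independent evidence beside the shares of all genes. Against Control, 0 of the 11 were called higher and 4 lower in HS1 (median log2 fold change -0.35), 1 higher and 0 lower in HS3 (0.03), 9 higher and 0 lower in HS7 (1.96), and 5 higher and 1 lower in HS14 (0.57). Of all genes tested, the shares called higher and lower were 6.38% and 10.5% (HS1), 7% and 4.51% (HS3), 16.6% and 16.2% (HS7) and 15.8% and 17% (HS14). The median over all genes tested was 0.01, -0.01, 0.00 and 0.00 in these comparisons. The genes called lower in HS1 were Heyl (-0.84), the Notch receptor Notch3 (-1.02), the Notch ligand Dll1 (-1.58) and Cdkn1c (-1.83), by edgeR with adjusted p of 3.42e-05 or less. In HS7 Heyl was higher by 2.02, Notch3 by 2.11, Dll1 by 1.54 and Tgfb2, a transforming growth factor ligand, by 1.54, all called. In HS3, when the members rose, the called gene was Tead4, a transcription factor of the Hippo pathway active in differentiating myoblasts (0.41, edgeR adjusted p = 0.00693). In HS14, when Myog was below Control, Heyl (0.86) and Notch3 (1.10) were called higher and Tead4 (-0.44) lower.

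The fusion and membrane genes were called mostly in HS1, as lower, and in HS3, as higher. In HS1, 0 of the 7 were called higher and 4 lower (median -0.74), and in HS3 5 were called higher and 0 lower (0.90), where 10.5% of all genes were called lower and 7% higher. In HS7 all 7 had a higher mean (median 2.39), but 1 was called, near the 16.6% of all genes. This list was fitted only by the edgeR test of each pair of groups. The study, with DESeq2, reported Stac3, Trim72 and Myo18b among its DEGs higher in HS7. In HS14 2 were called higher and 2 lower (0.29), against 15.8% and 17% of all genes. Stac3, an adaptor of the muscle calcium channel, was lower by 1.43 on the log2 scale in HS1, and higher by 1.6 in HS3 and 2.10 in HS7, each called. Trim72, a membrane repair protein also named MG53, was at -0.79 in HS1 and 1.63 in HS3, both called, and at 2.74 in HS7, where it was not (SE 0.531, edgeR adjusted p = 0.0528). Tmem182, a muscle membrane protein, was at -1.0, 0.73 and 2.59, the first 2 called, and in HS14 it was called higher at 0.37.

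Most of the structural genes were lower than Control in HS1 and HS14, and all 25 were higher in HS3 and HS7. Of the 25, 0 were called higher and 15 lower in HS1 (median -0.59), 23 higher and 0 lower in HS3 (1.31), 2 higher and 0 lower in HS7 (2.17), and 0 higher and 17 lower in HS14 (-0.53). Of all genes 10.5% were called lower in HS1, 7% higher in HS3, 16.6% higher in HS7, a larger share than of the structural genes, and 17% lower in HS14. Myh3 was at -0.85 in HS1, 1.65 in HS3 and -0.97 in HS14, all called, and at 2.27 in HS7 without a call (SE 0.419, edgeR adjusted p = 0.0537). Actc1 was at -0.81, 0.99 and -0.31 in the same 3 groups, all called, and at 2.78 in HS7 (SE 0.409, edgeR adjusted p = 0.0358). Acta1, skeletal alpha-actin, was not called in HS1 (-0.01). Myh3 and Actc1, like Mymk, thus had a large difference from Control in HS7, with a large SE and no call. Why these calls were missed was not tested. The structural genes were fitted only by the edgeR test of each pair of groups. The study, with DESeq2, reported Actc1 and Acta1 among its DEGs higher in HS7.

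**Figure D5:**
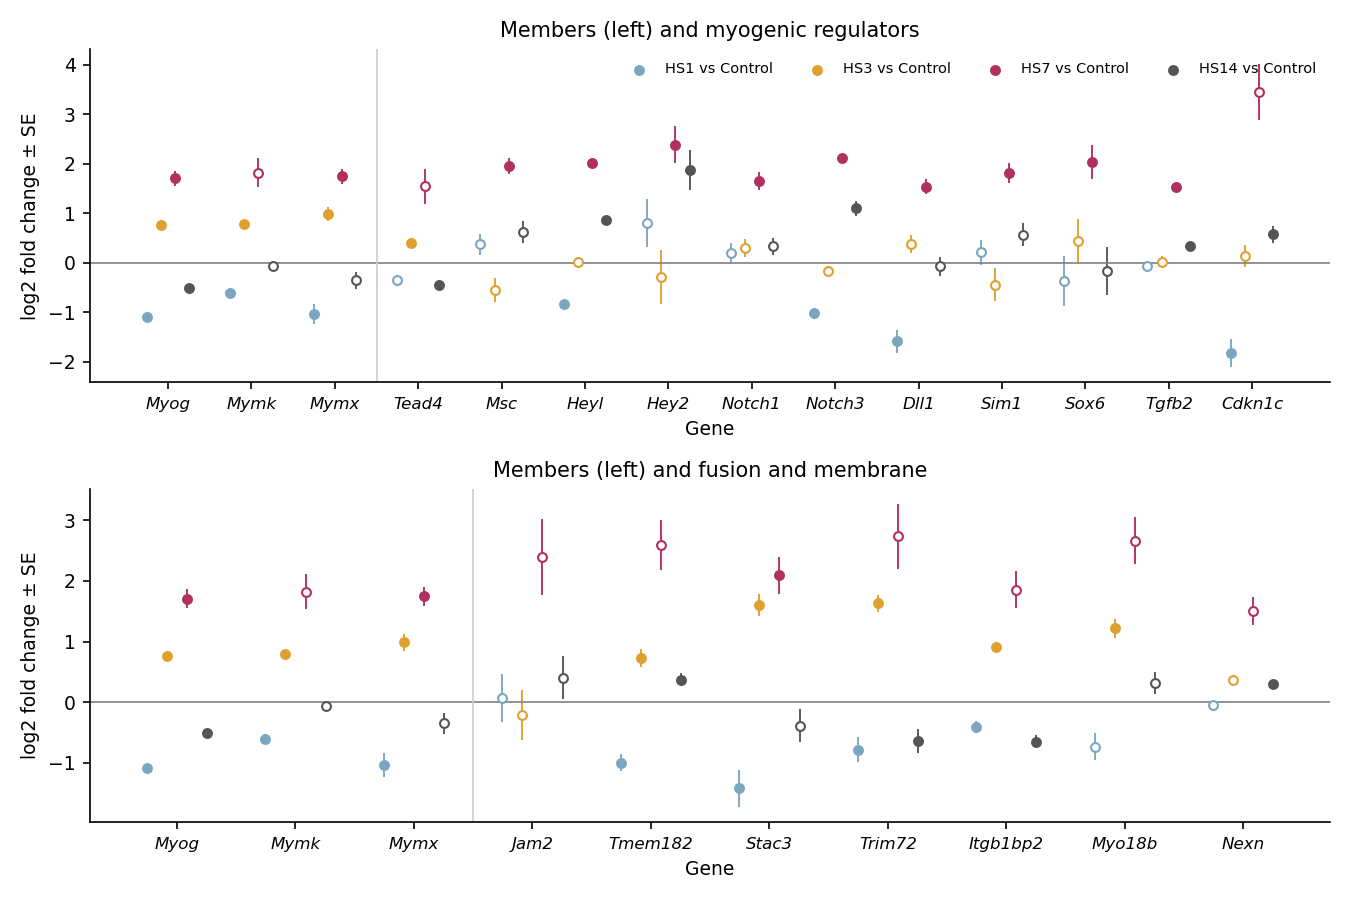
log2 fold change against Control with its SE (vertical axes) in HS1, HS3, HS7 and HS14 for the members, left of the line, and for 11 regulators (upper panel) and 7 fusion and membrane genes (lower panel); filled points have an edgeR adjusted p under 0.01. In HS7, 9 of 11 regulators are called against 1 of 7 fusion and membrane genes, and in HS3 1 of 11 against 5 of 7. All 11 regulators and all 7 fusion and membrane genes are above 0 in HS7, with medians of 1.96 and 2.39. Calls are from the edgeR test of each pair of groups alone, on genes from the study's list of called genes.

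Over the 10 libraries the members' log2 CPM were close to each other, with Pearson's r of 0.982 between Myog and Mymk, 0.983 between Myog and Mymx, and 0.968 between Mymk and Mymx. These are descriptions, since the libraries fall into 5 pairs and all genes share them. The gene nearest to Myog among 13691 was Tmod1, a tropomodulin that caps actin filaments (r = 0.998), followed among genes with a symbol by the myosin chaperone Unc45b, Filip1, slow troponin T Tnnt1 and Inpp4b, with ranks of 3 to 7. Nearest to Mymk were the cardiac and embryonic troponin T Tnnt2 (r = 0.995), Actc1, Unc45b, the calcium channel subunit Cacna1s and Myo18b. Nearest to Mymx with a symbol were Myh15 (r = 0.991), the acetylcholine receptor subunit Chrnd, Inpp4b, Tnnt1 and, in rank 8, Myog. Of the 50 nearest genes, 31, 29 and 32 had a symbol, and at least 97 genes had r of 0.95 or more with each member.

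The labelled cell type could be checked only in part. Of 9 markers of satellite cells and myoblasts 3 had an identifier (Fgfr4, Heyl and Notch3), which summed to 98.7 to 448 CPM, and the remaining 6 were not analysed here. The 10 markers of differentiating muscle, among them the 3 members, were above 0 in every library. Markers of fibro-adipogenic cells and fibroblasts, 10 of 11 with an identifier, were present in every library and moved with the members in part. Their sum was 8375 to 8892 CPM (Control), 2606 to 2620 CPM (HS1), 17945 to 21934 CPM (HS3), 8980 to 9062 CPM (HS7) and 3125 to 3354 CPM (HS14), and Col1a1 and Fbn1 were the most abundant. Of the 10, 9 were called lower in HS1 and none higher, 9 were called higher and 1 lower in HS3, 3 higher and 5 lower in HS7, and 1 higher and 8 lower in HS14. The shares of all genes called higher and lower were 6.38% and 10.5% (HS1), 7% and 4.51% (HS3), 16.6% and 16.2% (HS7) and 15.8% and 17% (HS14). All 10 were in the study's list of called genes, so these counts are not independent evidence. None of the 10 was at 0 in any group. Their part in the members' differences was not tested. Between HS3 and HS7 the sum fell while the members rose.

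Markers of other cell types were also present. The 8 endothelial markers with an identifier summed to 2.13 to 5.39 CPM in Control and HS1, 9.10 to 14.2 CPM in HS3 and HS7, and 19.0 to 20.3 CPM in HS14, with Emcn, picked after its values were seen, at 0 in both HS1 libraries. Macrophage and leukocyte markers (4 of 7) summed to 4.74 to 28.1 CPM, Schwann and glial markers (2 of 5) to 2.53 to 35.5 CPM, smooth muscle and pericyte markers (3 of 6) to 64.9 to 389 CPM, with Rgs5, also picked after its values were seen, at 0 in both Control libraries, and adipocyte markers (5 of 5) to 54.9 to 271 CPM. The first 3 of these sums were highest in HS3. The adipocyte sum was highest in HS7, chiefly through Lpl at 266 and 202 CPM. Of the 3 adipocyte markers tested in HS7 against Control, 1 was called higher and 2 lower, among them Pparg (log2 fold change -1.78). The smooth muscle and pericyte sum was mostly Pdgfrb, at 348 and 382 CPM in HS3. Myocd, at 5.74 and 6.96 CPM in HS3, was higher in Control, at 9.89 and 8.72 CPM. Ngfr, a Schwann and glial marker, and Rgs5 were highest in HS14. The part of all these markers in the members' differences was not tested.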

How the data were processed

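RNA sequencing libraries from cultured myoblasts (TruSeq Stranded mRNA, Illumina NextSeq 2000) were mapped by the authors with STAR and counted per gene with featureCounts, and the authors deposited raw counts without normalization. The study's methods name the build mRatBN7.2, whereas the submitters' processing notes name Rnor_6.0, STAR 2.7 and featureCounts 1.6.4; the build was not settled here, and no coordinates of the counted genes are given. The counting options (pairs, strand, multiple hits) are not given in the sources used here.

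Each pair of groups was fitted on its own 4 libraries in edgeR 4.0.16 (R 4.3.3, limma 3.58.1) with filterByExpr, TMM and the robust quasi-likelihood test, and every adjusted p is adjusted over all genes tested (13008 to 13164). Fits were tested on simulated data. The libraries of a group differed beyond sampling noise (chi-square over genes 1.81 to 6.13 per degree of freedom). The log2 CPM for correlations had a prior count of 2, and replicate differences of all genes 0.5 CPM. Ratios were compared by exact permutation. As alternatives, the fits were repeated with DESeq2 1.42.0, with RLE in place of TMM, unfiltered, jointly on the 10 libraries, with the replicate number as a block, with DEGs taken beyond a log2 fold change of 1, and without each library, and levels and ratios with library totals, 10 counts added to each gene, and HS7 left out.

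Symbols came from the study's list of 817 identifiers, 770 with a symbol. The members and lists were chosen with earlier results of these data known. Named were the members, genes of the regulator and fusion lists and the 6 most abundant structural genes. Also named were up to 5 nearest genes with a symbol per member and the 2 most abundant markers per list. Emcn and Rgs5 are outside this rule.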

Additional observations from a re-analysis of the deposited data

How the results depend on the processing

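Of the 30 results (3 genes in 10 comparisons), direction and side of the threshold held for 30 with RLE size factors, 28 without the expression filter, 26 with DESeq2, 26 with the replicate block and 21 with all 10 libraries in one fit. No direction reversed for a called result. With all 10 libraries 5 calls were lost: Mymk in HS1 vs Control (-0.60), HS3 vs Control (0.80), HS14 vs HS1 (0.54) and HS14 vs HS3 (-0.86), and Myog in HS14 vs Control (-0.51). Mymk passed in HS7 vs Control at 1.82 with DESeq2 and 1.82 with all 10 libraries, in HS7 vs HS3 at 1.01 with DESeq2, 1.01 without the filter and 1.02 with all 10 libraries, and, with DESeq2 and all 10 libraries in turn, in HS14 vs HS7 at -1.87 and -1.88 and in HS7 vs HS1 at 2.41 and 2.42. Mymx passed in HS14 vs HS1 at 0.67 without the filter. With the replicate block Mymk passed in HS7 vs HS3 (0.97), HS14 vs HS7 (-1.85) and HS7 vs HS1 (2.38), and Mymx in HS14 vs HS1 (0.66); the block changed no other call. The labels do not say whether the replicate numbers pair libraries across groups. Correlations of deviations of same-numbered libraries over the expressed genes were -0.01 to 0.08, which cannot settle it. With a log2 fold change beyond 1, 2 members were DEGs in HS1 vs Control and 2 in HS14 vs HS3, against 0. The mean of Mymk in HS3 was 125 CPM by library totals, against 129 by TMM. The causes of these changes were not tested.

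Leaving out 1 library leaves a lone library that is assumed to vary like the others. Mymk passed without either HS7 library in HS7 vs Control (1.48 to 2.09 over the 4 libraries), HS7 vs HS3 (0.68 to 1.28), HS14 vs HS7 (-2.14 to -1.54) and HS7 vs HS1 (2.08 to 2.68). In HS7 vs HS3 the ranges were 0.71 to 1.10 for Myog and 0.50 to 0.94 for Mymx. In HS14 vs HS1 Mymx ranged from 0.42 to 0.94 and passed without HS1 replicate 2 or HS14 replicate 2. DEGs among the members numbered 1 to 3 in HS7 vs Control, the 1 without HS7 replicate 1, and 0 to 1 in HS14 vs HS3, the 1 without HS14 replicate 1. The adjusted p of the Mymx to Mymk ratio ranged from 0.0159 to 0.559.

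With 2 libraries per group the SD rests on 2 values, and the Mymx counts of 83 to 238 in Control, HS1 and the lower HS14 library limit what its ratios can show.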
